A study of Mus musculus with 6 samples.

Results

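Semaphorins and ephrins are ligands of cell and axon guidance, and plexins and Eph receptors are the proteins that receive them. The genes described here are those whose array annotation symbol begins with Sema3 to Sema7 or names an A to D plexin, an A or B Eph receptor or an A or B ephrin. There were 50 such genes of 18193 measured: 28 ligands (20 semaphorins and 8 ephrins) and 22 receptors (9 plexins and 13 Eph receptors). Where a gene had several probe sets, the one brightest on average across the 6 arrays stands for it. No filter on low values was applied, and 29 of the 50 were brighter than the median gene.

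Class 3 semaphorins are secreted and mostly act through a neuropilin joined to an A plexin, while the other vertebrate semaphorins are held in the membrane or anchored to it and bind plexins directly. Ephrin-A ligands are tethered by a lipid anchor and ephrin-B ligands span the membrane, so Eph signalling needs cell contact and can run in both directions. In the early embryo these families set boundaries between cell groups and steer migrating mesoderm, and in vessels they help to separate arteries from veins and to guide sprouts.

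RNA came from cells of the mouse ES cell line ER71 A17C, which was derived from the 129P2/Ola background and carries a doxycycline inducible Etv2 cassette (ER71 A2Lox.cre) in every sample of both groups. Etv2 is an ETS transcription factor needed for endothelium and blood. Embryoid bodies were made in hanging drops under a mesoderm inducing condition, and Flk1-positive cells, those with the VEGF receptor encoded by Kdr on their surface, were sorted at day 3.5. The 3 induced samples had 0.5 microg/ml doxycycline for 12 hours from day 3, and the 3 controls were untreated by the series' description, although the treatment field carries the doxycycline text on all 6 samples. The line is a single one, no doxycycline-treated line without the cassette was analysed here, and effects of the drug and of Etv2 cannot be told apart. No label says that the replicates were separate cultures, so p-values cover only the spread among these 6 samples, part of which may be technical.

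All values are log2 RMA levels from expression arrays. Etv2 stood at 9.92, 8.59 and 10.71 in controls 1 to 3 and at 13.27, 13.28 and 13.36 in induced samples 1 to 3, so the groups did not overlap. Its log2 fold change was 3.56 ± 0.44 (SE), with a limma adjusted p of 0.388 over all genes. Kdr, the gene of the sorted protein, stood at 10.02, 8.40 and 10.97 in the controls and at 9.56, 9.36 and 10.52 in the induced samples, a span of 5.94-fold over the arrays. Mesoderm genes were present beside it, with Mesp1 between 11.30 and 13.05 and Pdgfra between 9.90 and 11.78. Of 18 mesoderm markers other than Kdr, 17 were brighter than the median gene. So were 13 of 15 pluripotency and epiblast markers, with Pou5f1 between 12.67 and 13.46, and 9 of 13 endoderm markers. Endothelial markers were dim: 2 of 17 were brighter than the median gene, and Cdh5, which encodes VE-cadherin, was at 6.25 in controls and 6.44 in induced samples. Of the neuroectoderm markers, which belong to the other tissue where guidance genes are best known, 5 of 14 were. Array medians ran from 7.335 to 7.396, with the highest in induced 2. In bulk samples such as these, fewer cells of a type and less RNA per cell cannot be told apart.

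The comparison of induced with control samples asks which guidance genes differ once Etv2 has been induced for 12 hours. No guidance gene passed the threshold. In limma, 0 of 50 had an adjusted p under 0.05, where the share of all genes was 0.0055%, and 0 of 50 had an unadjusted p under 0.05, where it was 1.71%. The smallest unadjusted p was 0.0945, and every adjusted p was 0.9995. Likewise, 0 of 50 had induced samples wholly above or below the controls, against 6.79% of all genes (2.88% higher and 3.91% lower). Log2 fold changes, induced minus control, were positive in 25 and negative in 25, with a median of -0.00085 beside 0.0026 for all genes. Ligands had a median of 0.0092 with 15 of 28 positive, and receptors one of -0.0078 with 10 of 22 positive. With 3 samples against 3 an exact permutation test cannot give less than p = 0.1, so single values rest on limma.

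**Figure D1:**
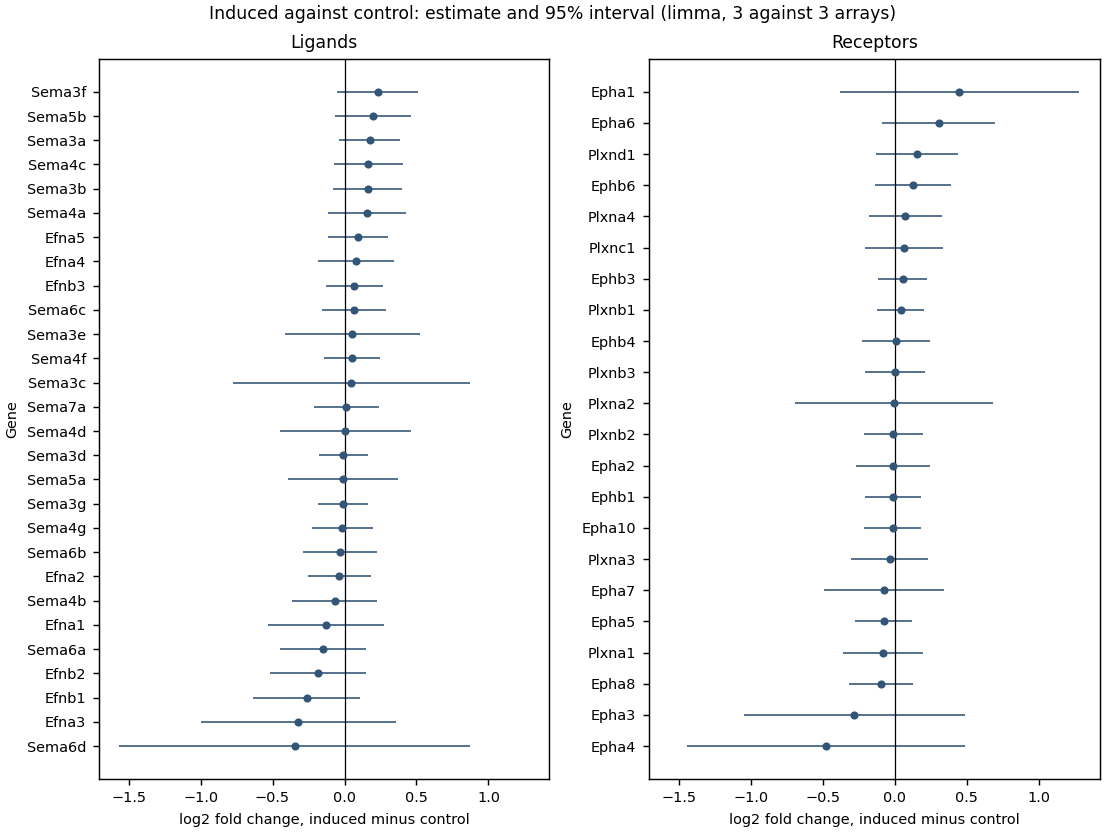
Log2 fold change (induced minus control, x axis) of each of the 28 ligands and 22 receptors, with points for limma's estimate and lines for the 95% interval, from 3 against 3 arrays. Every interval includes 0, and Sema6d and Epha4 have wide ones, from -1.57 to 0.87 and from -1.45 to 0.49.

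Class 3 semaphorins, the secreted ligands, numbered 7, of which 5 had a positive log2 fold change. Sema3f, a ligand of the neuropilin 2 receptor, had the smallest p among the ligands, with values of 10.80, 11.03 and 11.13 in the controls and 11.06, 11.41 and 11.18 after induction. Its log2 fold change was 0.23 ± 0.12 (SE), and the groups overlapped. Sema3a, the classic growth cone repellent, was dim, with a log2 fold change of 0.17 ± 0.092 and an interval of -0.039 to 0.39. Sema3c, a ligand known for its part in forming the cardiac outflow tract, stood at 6.36, 7.37 and 5.76 in controls 1 to 3 and at 6.82, 6.54 and 6.27 in induced samples 1 to 3. Its lowest and its highest value were both controls, and its log2 fold change was 0.047 ± 0.36. Sema3e, which binds Plxnd1 without a neuropilin, spanned 0.80 over the arrays and had a log2 fold change of 0.054 ± 0.20. Sema3b, Sema3d and Sema3g differed by 0.16, -0.0073 and -0.014.

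The membrane-bound semaphorins numbered 13, and 7 of them had a positive log2 fold change. Sema6d, a transmembrane ligand of Plxna1, had the widest range of all 50 genes. It stood at 10.40, 8.69 and 10.76 in controls 1 to 3 and at 9.51, 9.01 and 10.29 in induced samples 1 to 3. The control values enclosed those of the induced samples, and the span was 4.19-fold. Its log2 fold change was -0.35 ± 0.53 (SE). Sema4d, a ligand of Plxnb1, stood at 9.31, 9.76 and 9.18 in controls and at 9.63, 9.60 and 9.04 in induced samples, with group means of 9.42 in both. Sema5a, a semaphorin with thrombospondin repeats, was at 8.80, 8.40 and 8.48 in controls and at 8.88, 8.28 and 8.48 in induced samples. Its log2 fold change was -0.011 ± 0.17. Sema7a, the lipid-anchored ligand of Plxnc1, kept within 0.27 over all arrays, at 8.21, 8.17 and 8.44 in controls and 8.19, 8.36 and 8.32 in induced samples. Sema5b had the largest positive difference of these 13, at 0.20 ± 0.11. The others lay between -0.15 for Sema6a and 0.17 for Sema4c.

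Ephrins, the ligands of Eph receptors, were negative in 5 of 8. Efna3, a lipid-anchored ephrin-A, stood at 10.46, 9.57 and 10.74 in controls 1 to 3 and at 9.87, 9.63 and 10.30 in induced samples 1 to 3. Control 2 was the lowest array and control 3 the highest, and the log2 fold change was -0.32 ± 0.29 (SE). Efnb1, a transmembrane ephrin encoded on the X chromosome, stood at 9.13, 8.61 and 9.24 in controls and at 8.68, 8.64 and 8.87 in induced samples. It had the smallest p of the ephrins in limma, 0.139 unadjusted, with a log2 fold change of -0.26 ± 0.16. Efnb2, the ephrin that marks arterial endothelium, had -0.19 ± 0.15. Its other probe sets differed by -0.20, 0.076 and 0.34. The last was dimmer, at 6.94, 7.10 and 7.14 in controls and 7.24, 7.74 and 7.23 in induced samples (limma unadjusted p = 0.0478, adjusted 0.9997). Efna1, often linked to endothelium, had -0.13 ± 0.18, and Efna2, Efna4, Efna5 and Efnb3 lay between -0.036 and 0.091.

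Plexins, the semaphorin receptors, had a median size of the group difference of 0.041 on the log2 scale over 9 genes, beside 0.067 for all genes. Plxna2, a receptor of Sema6a, stood at 9.47, 8.37 and 9.55 in controls 1 to 3 and at 9.27, 8.83 and 9.27 in induced samples 1 to 3. Control 2 was the lowest array and induced 2 the next, and the log2 fold change was -0.0042 ± 0.30 (SE). Plxnd1, the receptor of Sema3e known from growing vessels, stood at 7.52, 7.27 and 7.74 in controls and at 7.60, 7.65 and 7.75 in induced samples. It had the largest positive difference of the plexins, 0.15 ± 0.12, with overlapping groups. Plxnb2 was at 10.13, 10.01 and 10.29 in controls and 10.16, 10.14 and 10.10 in induced samples. Plxnc1, the receptor of Sema7a, was at 7.04, 7.47 and 7.17 in controls and 7.29, 7.36 and 7.20 in induced samples. Their log2 fold changes were -0.011 and 0.061. Plxnb1, the receptor of Sema4d, had a narrow interval of -0.12 to 0.21, and Plxna1, Plxna3, Plxna4 and Plxnb3 lay between -0.083 and 0.075.

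Eph receptors, the tyrosine kinase receptors of ephrins, held both the largest positive and the largest negative difference of the 50. Epha4, which binds ephrins of both classes and is known from somite boundaries, stood at 9.97, 8.85 and 10.49 in controls 1 to 3 and at 9.18, 8.79 and 9.91 in induced samples 1 to 3. Its log2 fold change was -0.48 ± 0.42 (SE), with induced 2 and control 2 as its lowest arrays. Single arrays moved it: it was -0.12 without control 3, -0.23 without induced 2, -0.79 without induced 3 and -0.94 without control 2. Epha1 stood at 9.37, 8.86 and 8.13 in controls and at 8.99, 8.80 and 9.91 in induced samples, so that the difference of 0.45 ± 0.36 came with a spread of 3.45-fold. Its other 2 probe sets were dim and spanned less, with correlations of 0.20 and 0.37 to the one used. Epha3, a receptor of ephrin-A ligands, stood at 7.13, 5.77 and 6.77 in controls and at 6.46, 5.85 and 6.52 in induced samples. The log2 fold change was -0.28 ± 0.33. Epha6 was dim, at 5.26, 5.35 and 5.53 in controls and 5.37, 6.07 and 5.62 in induced samples, with induced 2 highest. Ephb6, whose kinase domain is inactive, was at 8.16, 8.34 and 8.17 in controls and 8.29, 8.57 and 8.19 in induced samples. Ephb4, the receptor of Efnb2 that marks veins, had control levels averaging 9.80 ± 0.12 (SD, n = 3) and induced levels averaging 9.81 ± 0.14. Epha2, a receptor of epithelia and the early embryo, averaged 10.43 ± 0.21 and 10.42 ± 0.039, and Epha5, Epha7, Epha8, Epha10, Ephb1 and Ephb3 lay between -0.097 and 0.054.

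Arrays of the same group differed widely in some guidance genes. Over the 6 arrays 7 of the 50 spanned more than 1 on the log2 scale, or 2-fold, where 2.33% of all genes did. These were Sema6d, Epha1, Epha4, Sema3c, Epha3, Plxna2 and Efna3. The median span was 0.41 for the 50 and 0.32 for all genes. Control 2, the array with the lowest Kdr, was the lowest of the 6 in 19 guidance genes and the highest in 9, or 56% together, where it was an extreme in 31.6% of all genes. Induced 2, the array with the highest median, was the highest in 14 and the lowest in 6. The share of all genes with induced 2 as an extreme was not computed.

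**Figure D2:**
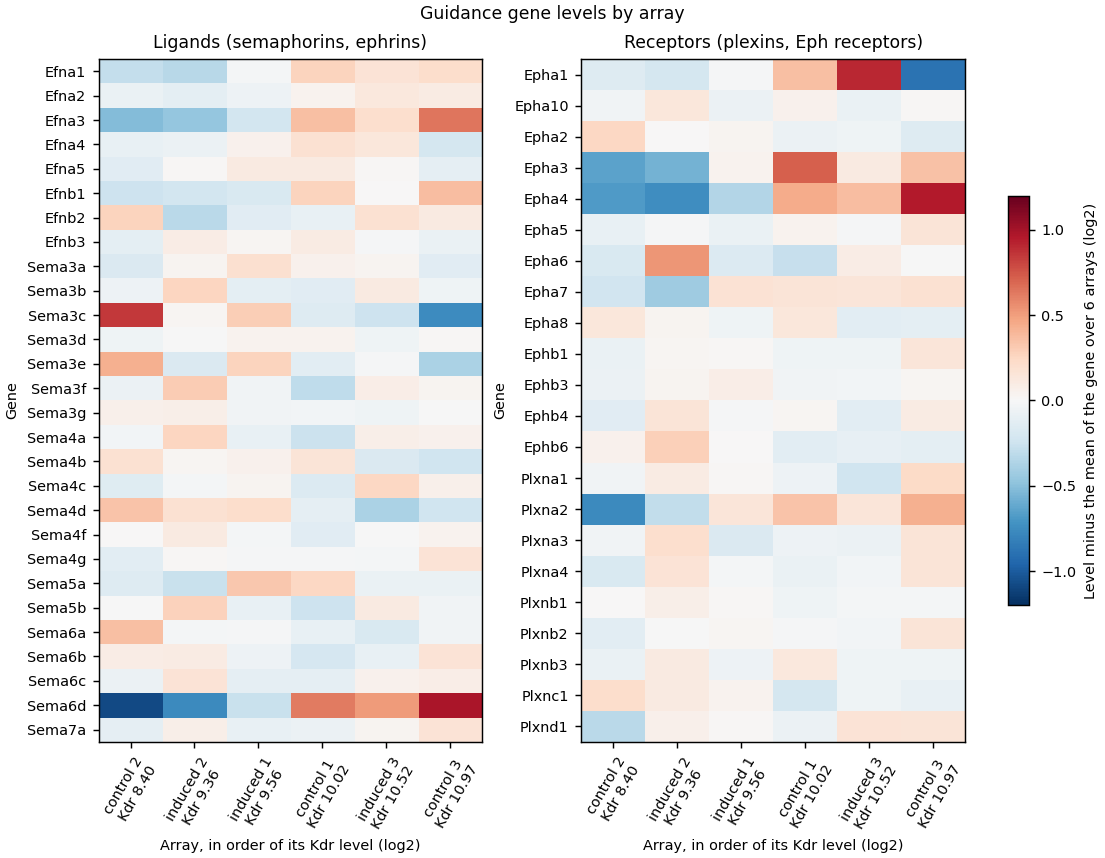
Level of each guidance gene (rows, ligands left and receptors right) minus its mean over the 6 arrays, in log2 units shown by colour, with arrays (columns) in the order of their Kdr level from 8.40 to 10.97. Sema6d, Efna3, Epha4 and Plxna2 go from low to high across the columns and Sema3c from high to low, while control and induced arrays are mixed.

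Because the cells were sorted on the protein of Kdr, the Kdr level is a property of each sorted sample, and it was set against each guidance gene. In limma with the group as a term and the Kdr level as a covariate, 7 of 50 guidance genes, or 14%, had a slope past an adjusted p of 0.05, where 3.73% of all genes did. Of these, 5 rose with Kdr (1.75% of all genes) and 2 fell (1.98%). The slope is the difference in log2 level per log2 unit of Kdr. This fit was added after the planned correlations had been seen. Ligands gave 5 of 28 (Sema6d, Efna3 and Efnb1 rising, Sema3c and Sema4d falling) and receptors 2 of 22 (Epha4 and Plxna2, both rising).

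Sema6d had the steepest slope, 0.86 ± 0.082 (SE), with a limma adjusted p of 0.0011. In the order of Kdr from lowest to highest its levels were 8.69, 9.01, 9.51, 10.40, 10.29 and 10.76, with 1 inversion between control 1 and induced 3. Epha4 had a slope of 0.69 ± 0.063 (adjusted p = 0.00094) and Efna3, which can bind it, one of 0.48 ± 0.052 (adjusted p = 0.0020). Plxna2 had 0.44 ± 0.085 and Efnb1 0.24 ± 0.049, at adjusted p-values of 0.0255 and 0.0315. In the opposite direction, Sema3c had a slope of -0.57 ± 0.071 (adjusted p = 0.0035) and Sema4d of -0.28 ± 0.063 (adjusted p = 0.0434). Epha2 also ran against Kdr, from 10.67 in control 2 to 10.27 in control 3, but its slope of -0.14 did not pass (adjusted p = 0.205). At an unadjusted p under 0.05 the limma slope was called in 16 of 50, where 13.9% of all genes were, with 9 rising (6.67% of all genes) and 7 falling (7.23%). Beyond those named, Efna1, Plxnd1, Epha3 and Epha7 were among the rising and Sema3e, Sema6a, Sema4b and Plxnc1 among the falling genes.

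**Figure D3:**
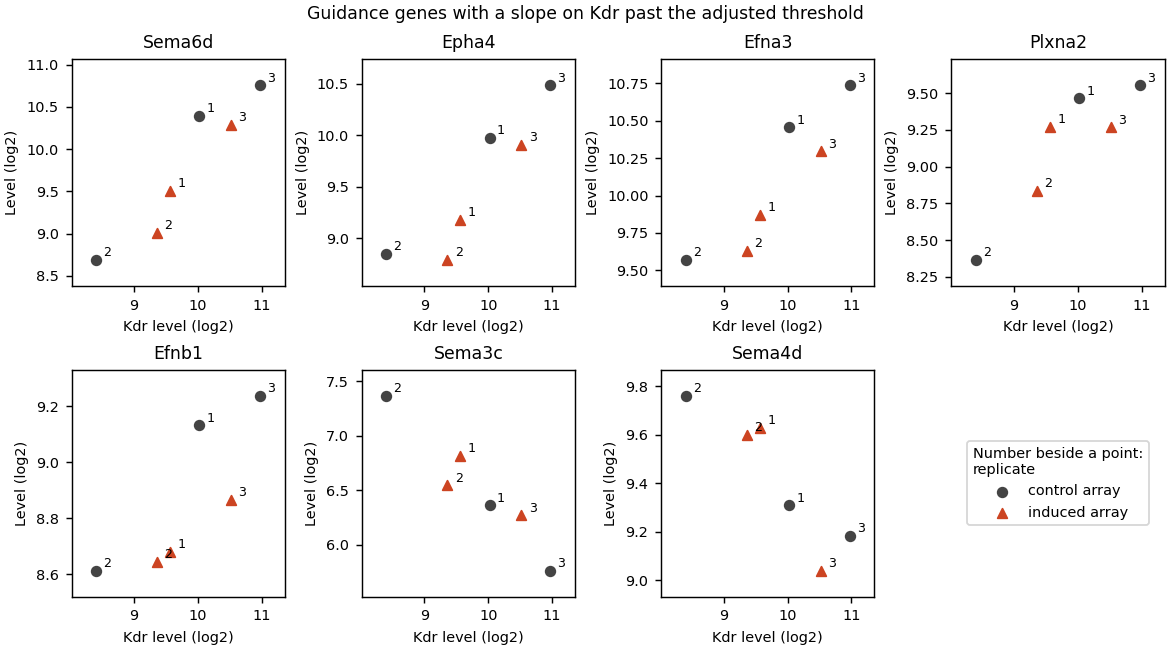
Log2 level of the 7 guidance genes with a slope past the adjusted threshold (y axes, scales differ) against the log2 Kdr level of the same array (x axes), with 3 control arrays as circles, 3 induced arrays as triangles and the replicate number beside each. Sema6d, Epha4, Efna3, Plxna2 and Efnb1 are higher and Sema3c and Sema4d lower in the array with the highest Kdr than in the one with the lowest, within each group.

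These slopes rest on few arrays, and the Kdr level followed the replicate numbers: it was lowest in both arrays numbered 2 (8.40 and 9.36), between in those numbered 1 (9.56 and 10.02) and highest in those numbered 3 (10.52 and 10.97). What same-numbered samples share and the Kdr level can therefore not be fully told apart, and the slope fit above and the permutations treat the 6 arrays as independent. With the replicate number as a block, added later and leaving 1 residual degree of freedom per gene, 8 of 50 had a limma slope past the adjusted threshold, where 5.95% of all genes did. Sema6d (0.71), Epha4 (0.44), Efna3 (0.41), Plxna2 (0.50) and Sema3c (-0.92) were among them, beside Efnb2 (-0.43), Epha6 (0.44) and Sema3e (-0.69). Efnb1 (0.31, adjusted p = 0.0884) and Sema4d (-0.18, adjusted p = 0.418) did not pass. The calls of Efnb2, Epha6 and Sema3e depended on the block: without it their slopes were 0.012, 0.013 and -0.26, none past the adjusted threshold. With control 2 left out, also without the block, they were 0.33, -0.0059 and -0.10. Without control 2 the limma slope was past the adjusted threshold in 0 of 50 guidance genes and in 0.115% of all genes, while 8 of 50 had an unadjusted p under 0.05, where 6.48% of all genes did. Among the 8 were Sema6d at 0.78, Epha4 at 0.76, Efna3 at 0.44, Sema3c at -0.45 and Sema4d at -0.38, while the slopes of Plxna2 and Efnb1 were 0.20 and 0.16 and did not reach an unadjusted p of 0.05. The count of 7, where 3.73% of all genes passed, was 4 without control 1, where 1.995% did. Without control 3, Sema6d, Epha4 and Efna3 kept their calls, and Plxna2, Efnb1, Sema3c and Sema4d did not.

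The planned correlations over the 6 arrays gave r of at least 0.9 in size for 7 of 50 guidance genes, where 5.4% of all genes reached it. Of these 4 were positive (2.51% of all genes) and 3 negative (2.89%). Sema6d had Pearson r = 0.945 (exact permutation p = 0.00556, adjusted over all genes 0.217) and Spearman rho = 0.943 (exact permutation p = 0.0167, adjusted 0.270). Sema3c had r = -0.960 (exact permutation p = 0.00694, adjusted 0.229) and rho = -0.943 (exact permutation p = 0.0167, adjusted 0.270). Epha2 had r = -0.941 (exact permutation p = 0.00556, adjusted 0.217) and rho = -0.886 (exact permutation p = 0.0333, adjusted 0.339). Epha4, Efna3, Plxna2 and Sema4d had r of 0.906, 0.912, 0.901 and -0.911, with exact permutation p-values of 0.0125 to 0.0153 (adjusted 0.261 to 0.278) and rho of 0.886, 0.943, 0.829 and -0.886 (adjusted 0.270 to 0.416). None of the 50 passed after adjustment over the 18192 genes other than Kdr, for which the smallest adjusted value was 0.184. Without control 2 and control 3, the arrays farthest from the median of Kdr, r was 0.881 for Sema6d, 0.894 for Epha4, 0.833 for Efna3, 0.605 for Plxna2, -0.775 for Sema3c, -0.980 for Sema4d and -0.734 for Epha2. Within groups, as deviations from the group means, r was 0.973 for Sema6d and 0.983 for Epha4.

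**Figure D4:**
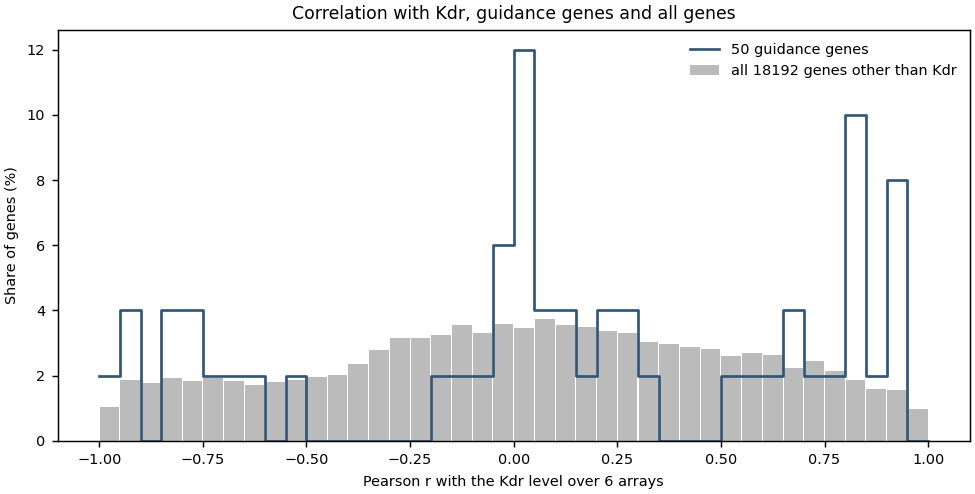
Share of genes (y axis, percent) by Pearson r with the Kdr level over the 6 arrays (x axis), with bars for the 18192 genes other than Kdr and a line for the 50 guidance genes. Of the guidance genes 14% lie at an r of at least 0.9 in size, against 5.4% of all genes.

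Several genes showed the same direction in more than 1 probe set. All 4 Plxna2 probe sets followed Kdr, with r from 0.78 to 0.99 over the arrays. Both Efna3 probe sets did, at 0.91 and 0.97, and the 3 of Efnb1, at 0.81, 0.95 and 0.93. Of the 5 for Epha4, 4 had r between 0.83 and 0.96, and the remaining one was dim. Sema6d and Sema3c rest on 1 probe set each: the other 3 of Sema6d had r of 0.40 to 0.62 and the other of Sema3c -0.32. The other 2 of Sema4d had -0.10 and 0.28, against -0.91 for the one used. Sema3e, which passed only with the replicate block, was negative in all 4 of its probe sets, from -0.79 to -0.95.

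The mesoderm and pluripotency marker lists moved with Kdr too, with Pearson r of 0.96 and -0.96 for their means, and the other lists were less uniform. In control 2, where Kdr was lowest, the mean of 18 mesoderm markers was 9.77 and that of 15 pluripotency and epiblast markers 10.76. In control 3, where Kdr was highest, they were 10.99 and 9.99. Over all arrays the mesoderm mean spanned 9.77 to 10.99 in controls and 10.16 to 10.62 in induced samples, and 16 of the 18 markers had a positive correlation with Kdr. The pluripotency mean spanned 9.99 to 10.76 and 10.27 to 10.52, and 2 of 15 were positive. The mean of 13 endoderm markers ran from 9.02 in control 2 to 9.40 in control 3 (r = 0.96), but only 5 of 13 were positive. The mean of 14 neuroectoderm markers was highest in control 2, at 7.68, and lowest in control 3, at 7.41 (r = -0.84), with 7 of 14 positive. The mean of 17 endothelial markers was 6.864 to 6.966 in controls and 6.967 to 7.07 in induced samples and the groups met at that edge without overlapping. Its r with Kdr was 0.26, with 7 of 17 positive. The mean of 12 blood markers was 7.25 to 7.52 and 7.37 to 7.61, with r = 0.59 and 8 of 12 positive. The part of these lineages in the slopes of Sema6d, Epha4, Efna3, Plxna2, Efnb1, Sema3c and Sema4d was not tested.

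With the Kdr level as a covariate, which was not among the planned fits, the limma comparison of induced with control samples again passed for 0 of 50 guidance genes after adjustment. At an unadjusted p under 0.05 there were 4, or 8%, where 3.83% of all genes were: Epha4 at a log2 fold change of -0.49, Efna3 at -0.33, Efnb1 at -0.27 and Sema6d at -0.36. Their smallest adjusted p was 0.679. With the replicate number as a block, 5 were at an unadjusted p under 0.05, where 3.6% of all genes were: Epha4, Efna3, Efnb1, Sema3f and Sema5b, with the adjusted p at 0.992 in each. Between same-numbered samples Epha4 differed by -0.79, -0.062 and -0.58, Efna3 by -0.59, 0.063 and -0.44, and Sema6d by -0.89, 0.32 and -0.47. Pair 2, which holds control 2, was apart from pairs 1 and 3 in each of the 3. Without control 2 the induced samples had a Kdr level lower by a log2 fold change of -0.68, and limma gave 7 guidance genes an unadjusted p under 0.05, where 4.84% of all genes were. Of those 7, 6 were lower, with Efnb1 at -0.45 ± 0.11 (SE), Epha4 at -0.94 and Sema6d at -0.98, and Sema3c was higher, with 0 of 50 past the adjusted threshold.

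Promoter sequence is shown for 3 of the 7 genes, the ligand and the receptor with the steepest rising slopes and the ligand that ran most steeply the other way, as the 250 bases before the annotated start in RefSeq, GRCm38.p6. Capitals mark matches to AGGTGT, the core of a T-box site, on either strand. CCGGAA, the core of an ETS site, was searched on both strands as well, with no match in these 3 windows. Nor did they hold a match on either strand to AGATAA, the core of a GATA site. Sema6d has 2 annotated starts, of which the first is shown, and which start the probe set reads is not known from the sources used here.
Sema6d (chr2:124089719-124089968, plus strand): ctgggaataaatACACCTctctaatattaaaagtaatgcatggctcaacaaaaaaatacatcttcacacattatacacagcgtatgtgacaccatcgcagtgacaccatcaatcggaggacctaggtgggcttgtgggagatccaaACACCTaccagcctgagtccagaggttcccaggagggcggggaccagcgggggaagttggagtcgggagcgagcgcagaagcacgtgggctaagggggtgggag
Epha4 (chr1:77515089-77515338, minus strand): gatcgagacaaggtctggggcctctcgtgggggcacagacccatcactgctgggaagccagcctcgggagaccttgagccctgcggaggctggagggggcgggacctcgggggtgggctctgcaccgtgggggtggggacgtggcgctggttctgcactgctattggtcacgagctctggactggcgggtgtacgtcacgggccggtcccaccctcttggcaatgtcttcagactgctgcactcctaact
Sema3c (chr5:17574566-17574815, plus strand): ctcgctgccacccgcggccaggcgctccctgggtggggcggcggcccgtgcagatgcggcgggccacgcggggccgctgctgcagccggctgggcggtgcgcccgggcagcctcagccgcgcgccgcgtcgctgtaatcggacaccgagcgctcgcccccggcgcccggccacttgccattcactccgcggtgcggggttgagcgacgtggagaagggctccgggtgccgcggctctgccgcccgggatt
The Sema6d window holds 2 T-box matches, whose first bases lie 238 and 104 bases before the start. The window of the other Sema6d start (chr2:124653331-124653580, plus strand) holds none. The GC content of the printed Sema6d window is 52.4%, against 66% for Epha4 and 78.4% for Sema3c. Of the 50 guidance genes 44 had a promoter in the table. Among those 44, AGGTGT was found for 6 (13.6%, against 13.6% of all 27025 genes in the table), CCGGAA for 5 (11.4%, against 13.6%) and AGATAA for 2 (4.55%, against 11.4%). These matches describe letters only.

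Co-receptors and partners of the guidance proteins were taken from 3 fixed lists. For induced against control, limma gave an adjusted p under 0.05 to 0 of 30 semaphorin partners, 0 of 30 ephrin partners and 0 of 19 genes of other guidance families, with Fyn on both partner lists. Farp1, a guanine nucleotide exchange factor that works with A plexins, was at 9.12, 9.08 and 9.36 in controls and 9.40, 9.45 and 9.36 in induced samples, the only one of 30 semaphorin partners at an unadjusted p under 0.05 (0.0484, adjusted 0.9995). Pdzrn3, which encodes a PDZ-domain ubiquitin ligase, was the only one of 30 ephrin partners. It stood at 9.18, 9.38 and 9.54 in controls and 9.09, 8.70 and 9.09 in induced samples, each below all 3 controls. It differed by -0.41 ± 0.14 (SE) on the log2 scale, at an unadjusted limma p of 0.0170 (adjusted p = 0.9995). Among the 19 genes of the other families, which include netrins, slits and their receptors, 0 were at an unadjusted p under 0.05. Of all genes 1.71% were. Groups did not overlap in 4 of 30 ephrin partners (2 higher and 2 lower after induction). The same held for 1 of 30 semaphorin partners and 1 of 19 genes of the other families, against 6.79% of all genes.

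On the slope with Kdr in limma, 4 of 30 semaphorin partners passed the adjusted threshold, all rising, with 3 of 30 ephrin partners (1 rising, 2 falling) and 3 of 19 genes of the other families, all rising. Of all genes 3.73% passed, 1.75% rising and 1.98% falling. With the replicate number as a block the counts were 3 of 30, 2 of 30 and 1 of 19 in the same order, where 5.95% of all genes passed. Without control 2 they were 1, 0 and 0, where 0.115% of all genes passed, and the 1 was Nrp1. Nrp1, the neuropilin that serves class 3 semaphorins and VEGF, had the largest slope of these, 1.30, with levels of 8.63, 6.63 and 9.63 in controls 1 to 3 and 8.21, 7.54 and 9.80 in induced samples 1 to 3. It was lowest in control 2, as was Sema6d. Nrp2, the partner of Sema3f, had a slope of 0.39, and L1cam and Dpysl5 had 0.32 and 0.40. Of the other families, Robo1, a slit receptor, had a slope of 0.59, the netrin gene Ntn1 0.31 and the netrin receptor gene Unc5d 0.27. Among ephrin partners the adaptor gene Grb7 fell with Kdr, at a slope of -0.43, as did Pick1 at -0.24, and Grb10 rose at 0.24.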

How the data were processed

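RNA of 6 samples was measured on expression arrays. The authors deposited 1 log2 level for each probe set and array, RMA output per the submitters' processing notes. The sources used here give no version of it. Of 45101 probe sets, 34945 with 1 gene symbol in the GEO platform annotation were used, giving 18193 genes. The members had 115 probe sets, 34 members more than 1, and all 50 symbols matched RefSeq. Precision is limited by having 3 arrays in each group.

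Groups were compared with limma (version 3.58.1, R 4.3.3), two-sided, with Benjamini-Hochberg adjustment over all genes and a threshold of 0.05; the code was tested on simulated data. Correlations used all 720 pairings of the arrays. They were planned with adjustment over the members, and adjustment over all genes was used instead. The members and lists were chosen with earlier results of these data known. Values in all 6 arrays are given for the widest-ranging gene of each family, the 8 widest of all members, and any member at an unadjusted p under 0.05 or with non-overlapping groups at least 0.2 apart; no member met the last 2 conditions. Any member may be named with its difference. The array values of Sema3f and of a further Efnb2 probe set, and the pair differences, were added after they were seen.

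Same-numbered samples deviated together from their group means (r = 0.161, 0.218 and 0.411 for numbers 1 to 3), each above 0.1. Differently numbered samples gave 0.299 (control 2 with induced 1), above numbers 1 and 2, and 0.236 (control 1 with induced 3). The remaining values were negative, so a pairing by number is not clear from these values. No label names a shared culture. The main fit left the numbers out, and they were treated as pairs only in alternatives and pair differences. Alternatives were the replicate number as a block, other probe sets, a filter on dim genes, other scalings, array weights, an intensity trend and arrays left out.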

Additional observations from a re-analysis of the deposited data

How the results depend on the processing

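In limma, 0 guidance genes passed the adjusted threshold for induced against control in all settings tried, and the medians of ligands and receptors moved by less than the spread between arrays of a group. Background flattens differences of dim probe sets, which concerns mainly the guidance genes outside the 29 brighter than the median gene. Scanner values were not used here.

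The replicate block gave 2 genes of all past the threshold against 1, array weights 6, and the Kdr covariate, added after the data were seen, 5; arrays or pairs left out gave 0 to 3. At an unadjusted p under 0.05 the main fit had 0 guidance genes, where 1.71% of all genes were. There were 5 with the replicate block and 4 with the Kdr covariate, where 3.6% and 3.83% of all genes were. Arrays left out gave 0 to 7, the 7 without control 2, where 4.84% of all genes were. Array weights gave 1 and every probe set tested singly gave 1, and for these the share of all genes was not computed. The 1 with every probe set tested singly was Efnb2. For induced against control the block ended or added no call after adjustment among the 50. On the slope with Kdr, array weights gave 14 guidance genes against 7, where 9.77% of all genes passed against 3.73%. The filter on dim genes gave 6 of the 29 guidance genes it kept, where 7.125% of all genes kept passed. Arrays left out gave 0 to 9, with 0 without control 2 (0.115% of all genes) and 4 without control 1 (1.995%). The share of all genes changed with the array left out, so these counts cannot be read alone. The 7 genes kept the direction of their slopes in every setting in which the slope was fitted. It was not fitted with pairs left out or with every probe set tested singly, and the filter on dim genes removed Sema3c. Sema4d also lost its call with the most variable probe set, after quantile normalization and with the replicate block, and Efnb1 with the block. Without control 1, Plxna2, Efnb1 and Sema4d lost their calls, and without control 3 these and Sema3c did. Efnb1 and Sema4d lost theirs without induced 3 as well. The cause was not tested.

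Some differences between the groups changed sign. Plxna2 (-0.0042) was 0.046 with the most variable probe set, 0.023 after quantile normalization, 0.028 with array weights and 0.029 over all its probe sets. Plxnb2 was 0.029 after quantile normalization and 0.0016 with array weights. Sema4d was -0.013 after centring on the medians and -0.039 with array weights. Sema7a was -0.0048 after centring and Sema5a 0.013 with array weights. With arrays left out the log2 fold change ranged from -0.94 to -0.12 for Epha4, -0.67 to -0.081 for Efna3, -0.22 to 0.86 for Epha1, -0.67 to 0.0054 for Epha3, -0.39 to 0.21 for Plxna2, -0.077 to 0.077 for Plxnb2, -0.034 to 0.18 for Plxnc1, -0.32 to 0.48 for Sema3c, -0.15 to 0.20 for Sema4d, -0.18 to 0.12 for Sema5a, -0.98 to 0.057 for Sema6d and -0.072 to 0.096 for Sema7a.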
